A study of Mus musculus with 8 samples.

Results

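P-glycoprotein and other drug efflux pumps were followed in mouse liver through 7 genes, Abcb1a, Abcb1b, Abcg2, Abcc1, Abcc4, Abcc5 and Abcc6. Their probes were those whose gene name in the scanner files was one of these symbols, which gave 7 of 24029 named genes, 11 of 55681 different probes and 20 of 59305 non-control spots. The set was chosen by the signal of Abcb1b, which was higher on the arrays from Raly knockdown livers, so the values of that contrast are given below for the 7 genes as a description without a test. Liver RNA came from 12-week-old bl6 mice on chow that had received adenovirus, shRaly livers with pblockITshRaly (4 arrays) and control livers with pblockITcontrol (4 arrays), at a virus dose of 2e+09 for which no unit is given. RNA was taken on day 6. Both groups therefore carried virus, and neither the sex of the mice nor the share of cells transduced is given in the labels. Raly, the gene targeted by the hairpin, codes for an hnRNP-type protein that binds RNA.

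Efflux pumps of the ATP-binding cassette (ABC) superfamily use ATP to move drugs, conjugates and endogenous metabolites out of cells. P-glycoprotein sits in the canalicular membrane of hepatocytes and expels hydrophobic and cationic compounds into bile; humans have a single gene for it, whereas rodents have a pair of close paralogs, Abcb1a and Abcb1b. Abcg2, the breast cancer resistance protein, is also apical and carries sulfate conjugates, porphyrins and urate. The ABCC members belong to the multidrug resistance-associated protein branch: Abcc1, Abcc4 and Abcc5 export organic anions, glutathione conjugates or cyclic nucleotides, and Abcc6 is a hepatocyte protein needed for the release of ATP that yields circulating pyrophosphate.

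The probes assigned to each of the P-glycoprotein paralogs are shown because the paralogs are reported separately. Both are 60-base oligonucleotides on the plus strand of chromosome 5 (mm9 coordinates of the files), at chr5:8865925-8865984 for Abcb1b and at chr5:8748075-8748134 for Abcb1a, and their place relative to exons was not analysed here.
Abcb1b probe: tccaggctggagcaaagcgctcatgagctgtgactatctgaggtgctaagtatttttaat
Abcb1a probe: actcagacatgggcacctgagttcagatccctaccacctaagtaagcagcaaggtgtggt
The longest run of bases that both probes hold is 7, and no other probe of the array shares 20 consecutive bases with either of them. Neither probe was compared with the transcript of the other paralog, so whether it also binds that transcript was not tested. Each paralog, like Abcg2, Abcc1 and Abcc4, was read by 1 probe. Abcc5 had 4 different probes, 1 of them printed in 10 spots, and Abcc6 had 2.

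The 8 arrays shared 1 slide and 1 scan. The shRaly arrays filled row 2 of it and the control arrays row 1, so that the group and the row cannot be told apart. Each column of the slide held the shRaly and the control array of the same number. Between 45.9% (shRaly 2) and 51.1% of the non-control spots were well above background, and correlations over genes were 0.987 to 0.994 among shRaly arrays, 0.991 to 0.995 among control arrays and 0.987 to 0.993 between the groups. Values below are log2 signals relative to the array's 75th percentile, or the same signals as a percentage of the control mean. Raly itself had 62.5% of the control signal in shRaly livers (log2 fold change -0.68, SE 0.15, n = 4 each), with every shRaly array below every control array. This did not pass the threshold over all genes (limma adjusted p = 0.0749), nor did it under 15 of 18 other ways of processing the data. Raly did pass with normexp background correction at an offset of 50 (log2 -0.71, adjusted p = 0.0111) or 1 (-0.73, 0.0313) and without shRaly 2 (-0.80, 0.0297). Of 14874 genes tested, 182 passed a limma adjusted p of 0.05, 46 higher and 136 lower in shRaly livers. Unadjusted p-values lay under 0.05 for 2397 genes, 16.1% of those tested (6.4% higher and 9.7% lower), and the counts of gene lists at that level given below are read beside these shares.

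Abcb1b was the pump gene that stood higher in shRaly livers. Its signal was 174%, 159%, 198% and 182% of the control mean on shRaly arrays 1 to 4, against 106%, 92.6%, 114% and 89.4% on control arrays 1 to 4. Every shRaly array lay above every control array, with the lowest of them (shRaly 2) still well clear of the highest control (control 3). The group means were -1.46 ± 0.13 in shRaly livers and -2.30 ± 0.16 in control livers (log2 scale, SD, n = 4 each), a 1.78-fold difference with a 95% interval of 1.49 to 2.12. By size of log2 fold change Abcb1b ranked 133 among the 14874 genes and 23 among the 46 that passed as higher. Of the 7 pump genes, 1 passed the threshold as higher, Abcb1b, and 0 as lower, beside 1.22% of all genes tested that passed in either direction and 0.309% that passed as higher (0.914% as lower). Groups of arrays that did not overlap were found for 1 of the 7, again Abcb1b, where the shRaly arrays were higher, and for 10.4% of all genes (3.93% with shRaly higher and 6.45% with shRaly lower). Since Abcb1b was picked for its rise, nothing is read from these counts.

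**Figure D1:**
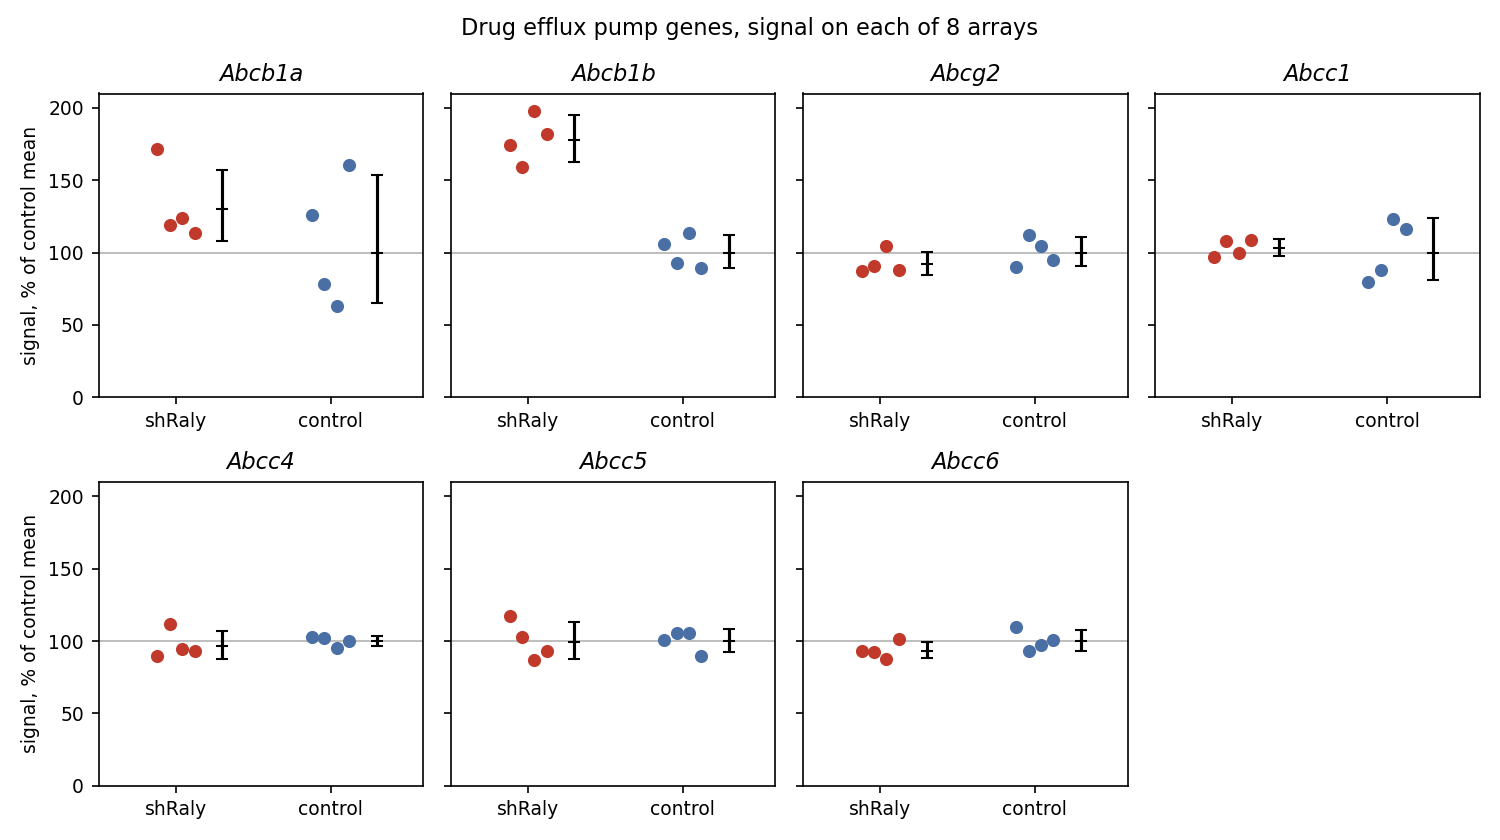
Signal of the 7 pump genes on each array, as a percentage of the control mean (vertical axis), with 1 point per array, shRaly left and control right in each panel. Bars are the mean and SD taken on the log2 scale. Abcb1b is the panel in which the groups do not overlap, with shRaly arrays between 159% and 198% and control arrays between 89.4% and 114%.

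The Abcb1b signal was measured above background but was not bright. Its mean spot signal was 95.8, 93.3, 134 and 126 scanner units on shRaly arrays 1 to 4, over a local background of 29, 32, 32 and 32, and 84.2, 71.7, 87.4 and 70.3 units on control arrays 1 to 4, over a local background of 26, 29, 28 and 26. The processed signal, from which background and spatial trends have been removed, was 82.3, 75.7, 118 and 101 on the shRaly arrays, against 62.0, 47.7, 64.4 and 48.1 on the control arrays. The probe was flagged as well above background on all 8 arrays, by 2.09 to 3.22 log2 units over the lowest such signal on the shRaly arrays and by 1.78 to 2.29 on the control arrays.

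The size of the Abcb1b difference depended on how this background was handled, while its direction did not. It was 0.83 on the log2 scale (SE 0.11) with the processed signal, 0.42 (SE 0.09) with normexp background correction and an offset of 50, which adds 50 units to signals of about that size, and 0.66 (SE 0.11) with an offset of 1, an alternative chosen after the data were seen. Within the slide columns 1 to 4 the difference was 0.71, 0.78, 0.80 and 1.03. The count of 1 pump gene past the threshold was 0 with slide column, and so title number, as a block (0.83, SE 0.10), with the dim probes kept in the test (0.83, SE 0.12) or without shRaly 3 (0.78, SE 0.12), shRaly 4 (0.82, SE 0.13), control 2 (0.79, SE 0.13) or control 4 (0.78, SE 0.12).

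**Figure D2:**
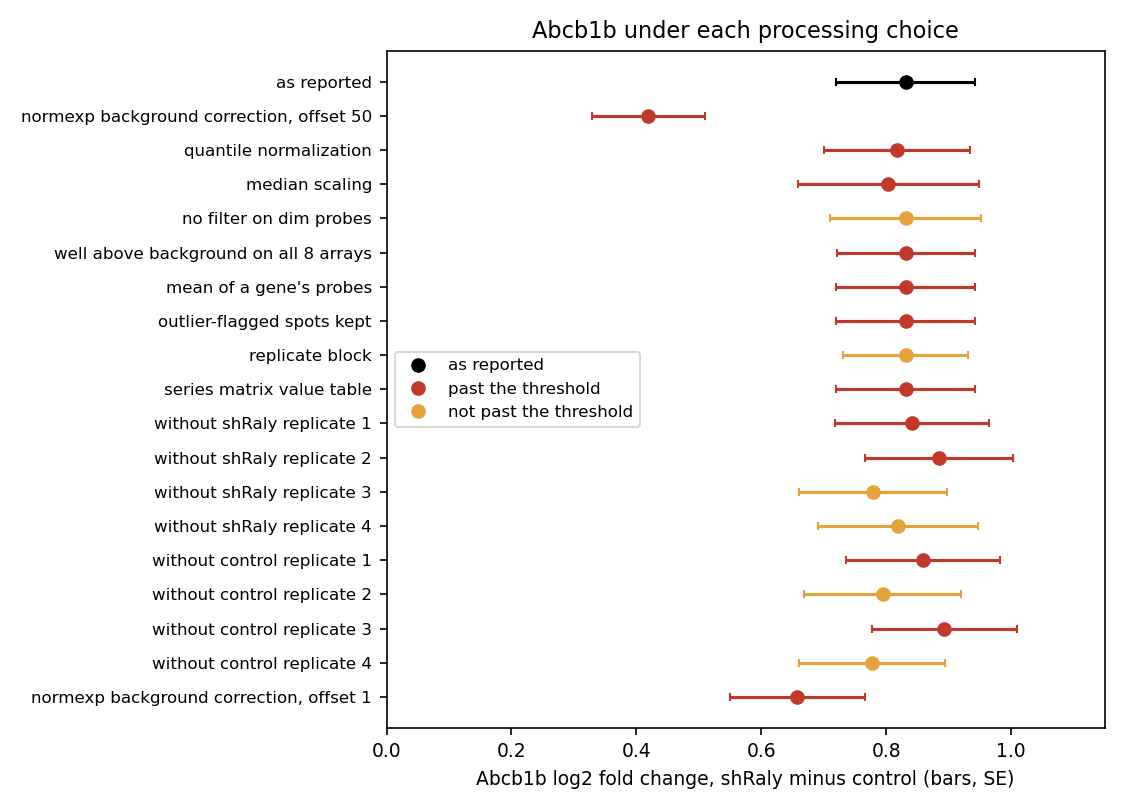
Abcb1b log2 fold change, shRaly minus control (horizontal axis), under each processing choice (rows), with bars for the SE. All points lie above 0, between 0.42 and 0.89, and the colour shows whether the gene was past the threshold of 0.05 over all genes tested.

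Abcb1a, the paralog that supplies P-glycoprotein at barriers such as the brain endothelium in mice, varied more between arrays of the same group. Its signal was 171%, 119%, 124% and 114% of the control mean on shRaly arrays 1 to 4, against 126%, 78.1%, 63.3% and 161% on control arrays 1 to 4. The groups overlapped, because control 4 and control 1 were as high as the shRaly arrays while control 2 and control 3 were low. The fold was 1.30 with a 95% interval of 0.832 to 2.04, which holds both no difference and the value found for Abcb1b, and whether the paralogs differ from each other was not tested. The spread among control arrays was 0.62 for Abcb1a and 0.16 for Abcb1b (SD of log2 signal, n = 4).

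The sequences before the annotated start of each paralog are printed, and these windows differ as well. They depend on the RefSeq start used. For Abcb1a that start belongs to an annotated span that overlaps Rundc3b. Whether liver transcripts of either gene begin at these starts was not examined. RefSeq's promoter table (GRCm38.p6) held entries for 5 of the 7 genes, and the 250 bases before the start are given here, on the plus strand at chr5:8797897-8798146 for Abcb1b and at chr5:8566841-8567090 for Abcb1a, with the bases of the motifs searched in capitals.
Abcb1b promoter: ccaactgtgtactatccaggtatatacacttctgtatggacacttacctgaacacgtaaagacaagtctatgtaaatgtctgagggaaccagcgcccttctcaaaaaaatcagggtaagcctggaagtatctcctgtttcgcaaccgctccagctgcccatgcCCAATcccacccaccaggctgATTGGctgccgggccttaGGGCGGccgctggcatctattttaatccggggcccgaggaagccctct
Abcb1a promoter: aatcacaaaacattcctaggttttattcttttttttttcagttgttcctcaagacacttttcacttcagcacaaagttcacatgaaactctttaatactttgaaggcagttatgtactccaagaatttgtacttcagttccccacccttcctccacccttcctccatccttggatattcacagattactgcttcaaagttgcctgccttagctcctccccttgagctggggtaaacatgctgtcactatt
The motifs searched, on both strands, were the TATA box TATAAA, the CCAAT box, the GC box GGGCGG, the NF-kB motif, an antioxidant response element (TGACNNNGC), AP-1 (TGANTCA), an E-box (CACGTG) and a sterol element (TCACNCCAC). The Abcb1b window held 2 CCAAT boxes, whose first bases lie 87 and 66 bases before the start and which face opposite ways, and 1 GC box at 48 bases. The Abcb1a window held none of the 8 motifs. Its GC content was 40.4%, against 52.8% for Abcb1b. Among all 32851 promoter entries of the table, 33.9% held a CCAAT box and 32.7% a GC box in the same window, so neither is rare. Of the other pumps with an entry, Abcg2 had GC boxes in 2 of its 3 promoters and Abcc4 in 1 of its 2, which also held an E-box. Both Abcc4 promoters held an antioxidant response element, a motif found in 10.2% of all entries. A match is a string of letters and does not show that a factor binds there.

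Around the Abcb1 pair on chromosome 5, Rundc3b was the other gene that rose. In the order of protein-coding genes the pair lies between Rundc3b and Abcb4, and the annotated span of Rundc3b overlaps that of Abcb1a. Rundc3b was looked at because of its position, after its value had been seen. Its log2 signal was -1.61, -1.95, -2.18 and -2.36 on shRaly arrays 1 to 4, against -3.95, -4.99, -3.77 and -3.10 on control arrays 1 to 4, with all shRaly arrays higher. The fold was 3.80 (log2 1.93, SE 0.35, limma adjusted p = 0.0439), where 3 of the 4 control arrays had the probe well above background, and the log2 difference was 0.66 with normexp and an offset of 50. On none of the arrays was a second Rundc3b probe well above background. Rundc3b stood highest on shRaly 1 and Abcb1b on shRaly 3, so the 2 genes did not share an order among the knockdown arrays.

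Abcb4, the flippase that puts phosphatidylcholine into bile and the nearest relative of the pair on its other side, had a fold of 1.01 (95% interval 0.859 to 1.18). A second, dimmer Abcb4 probe was well above background on every array. Its log2 difference was 0.18, and its groups overlapped. Slc25a40, a mitochondrial carrier gene beyond Rundc3b, stood at 73.0% of control (limma adjusted p = 0.0599, log2 -0.45, SE 0.09), and Crot, a peroxisomal carnitine acyltransferase beyond Abcb4, at 69.8% (log2 -0.52, SE 0.21, adjusted p = 0.28). The genes on either side thus had values of both signs.

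**Figure D3:**
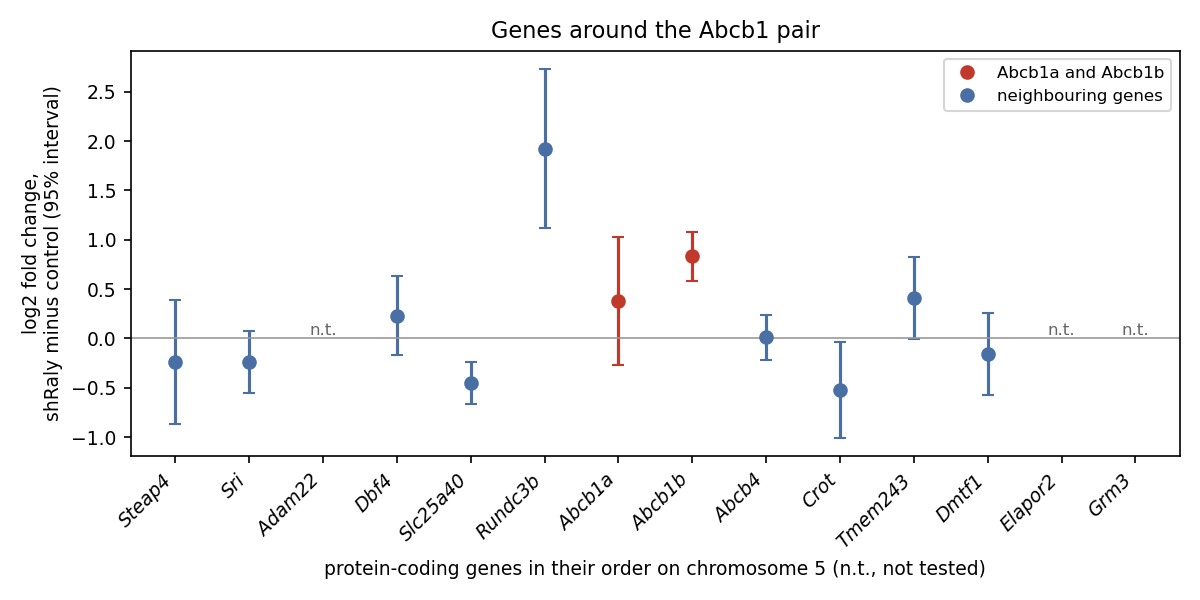
Log2 fold change, shRaly minus control, with 95% interval (vertical axis), for protein-coding genes in their order on chromosome 5 (horizontal axis, distances not to scale). Rundc3b (1.93) and Abcb1b (0.83) stand above their neighbours, and Abcb4 is at 0.01.

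Abcg2 was close to its control level. Its signal was 87.0%, 90.4%, 105% and 88.2% of the control mean on shRaly arrays 1 to 4, against 90.0%, 112%, 104% and 94.6% on control arrays 1 to 4. The shRaly 3 array lay among the controls and the other shRaly arrays near the lowest control, so the groups overlapped. The fold was 0.923 with a 95% interval of 0.783 to 1.09, which leaves out a change as large as that of Abcb1b.

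The ABCC pumps of glutathione conjugates and cyclic nucleotides also kept near 100%. Abcc1, an exporter of leukotriene C4 and glutathione conjugates, had 96.9%, 108%, 100% and 108% on shRaly arrays 1 to 4, against 79.3%, 88.0%, 123% and 116% on control arrays 1 to 4. The shRaly arrays fell inside the range of the controls, which split into a low pair (1 and 2) and a high pair (3 and 4). The fold was 1.03 (95% interval 0.817 to 1.30). Abcc4, a basolateral exporter of bile acid conjugates and cyclic nucleotides, had 89.3%, 112%, 94.5% and 92.9% on shRaly arrays 1 to 4, against 103%, 102%, 94.9% and 100.3% on control arrays 1 to 4. The shRaly arrays lay on both sides of the tightly grouped controls, and the fold was 0.967 (0.834 to 1.12).

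Abcc5, an exporter of cyclic nucleotides and nucleotide analogues, gives a measure of the error within an array, since its brightest probe was printed in 10 spots. The mean of these spots was 117%, 103%, 86.9% and 93.2% of the control mean on shRaly arrays 1 to 4, against 100.5%, 105%, 106% and 89.4% on control arrays 1 to 4. The shRaly arrays lay both above and below the controls, at a fold of 0.995 (95% interval 0.831 to 1.19). Between spots of the same array the SD was 0.07 to 0.11 on the shRaly arrays and 0.05 to 0.10 on the control arrays (log2 scale, 8 to 10 spots used). Between arrays the SD of the spot means was 0.19 for shRaly and 0.11 for control (n = 4 each). A second probe, which the files assign to another transcript accession, had a fold of 0.857 (95% interval 0.625 to 1.18 in the fit of all probes). The other 2 Abcc5 probes did not pass the filter on dim signals and were well above background on at most 2 arrays of a group, so no fold is given for them.

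**Figure D4:**
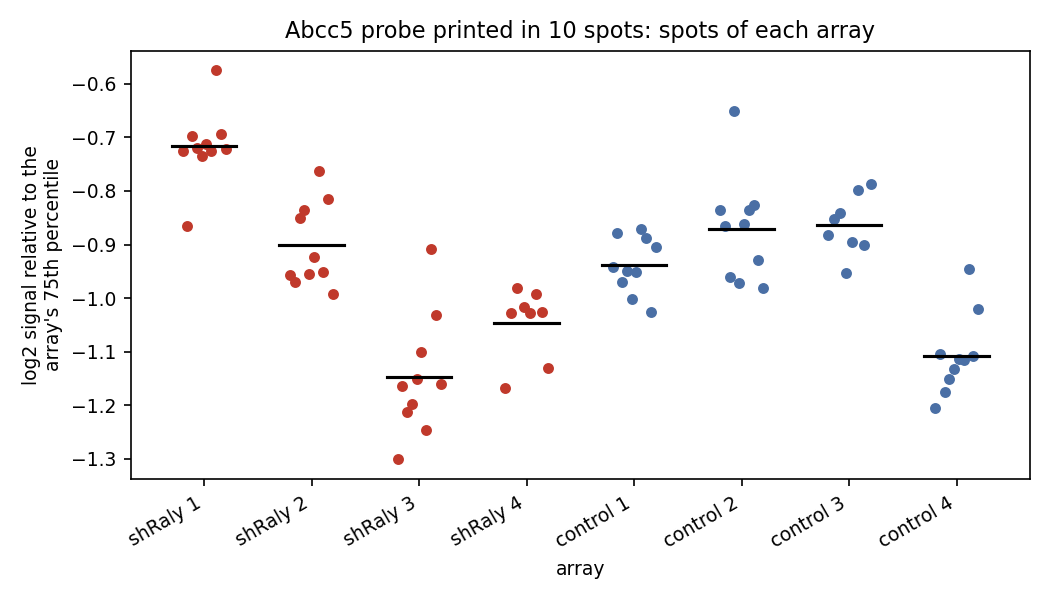
Log2 signal relative to the array's 75th percentile (vertical axis) for each spot of the repeated Abcc5 probe, by array (horizontal axis, shRaly left), with a line at the mean of each array. The means of the groups overlap, running from -1.15 to -0.72 for the shRaly means and from -1.11 to -0.86 for the control means.

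Abcc6 was measured by 2 probes that lie next to each other on chromosome 7. The brighter one had 93.0%, 92.1%, 87.8% and 101% of the control mean on shRaly arrays 1 to 4, against 110.0%, 92.9%, 97.5% and 100.4% on control arrays 1 to 4. shRaly 2 and shRaly 3 lay just below the lowest control and the others inside the control range. The fold was 0.934 (95% interval 0.812 to 1.08). The dimmer probe had 92.0%, 84.0%, 88.9% and 81.2% on shRaly arrays 1 to 4, against 123%, 94.9%, 93.8% and 91.6% on control arrays 1 to 4, a fold of 0.864 (0.722 to 1.03 in the fit of all probes). Its control 1 array stood apart from the other 3, and without it the groups would still overlap by a narrow margin, since shRaly 1 was at 92.0% and control 4 at 91.6%. In bulk liver RNA, fewer cells of a type and less RNA per cell cannot be told apart for any of these genes.

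Of 13 further genes, full-length ABCB transporters and members of the ABCC and ABCG families, 0 passed the threshold in limma. Of these, 2 were higher and 2 lower at an unadjusted p under 0.05, and their median log2 fold change was 0.07, beside -0.02 over all genes tested. Abcc12, the gene of smallest p among them, had a fold of 2.77 (log2 1.47, SE 0.39, adjusted p = 0.114), with shRaly signals of -2.20, -3.18, -1.57 and -2.32 against -4.69, -3.22, -3.74 and -3.50 in controls (arrays 1 to 4), and its probe cleared background on 3 of 4 controls. With normexp Abcc12 passed, at 0.65 (adjusted p = 0.0194) with an offset of 50 and 1.27 (adjusted p = 0.0252) with an offset of 1. Abcb11, the bile salt export pump, was at 82.5% of control (adjusted p = 0.215), Abcc2, the canalicular exporter of bilirubin glucuronides, at 92.8% (adjusted p = 0.626), and Abcc3, its basolateral counterpart, at 111% (adjusted p = 0.565). Of 7 ABCB hemitransporters, made of 1 set of domains, of lysosome, mitochondria and endoplasmic reticulum, 0 passed, with 0 at an unadjusted p under 0.05. Their median was 0.08 and the smallest p was that of Abcb9, a lysosomal peptide transporter (fold 1.30, adjusted p = 0.356).

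**Figure D5:**
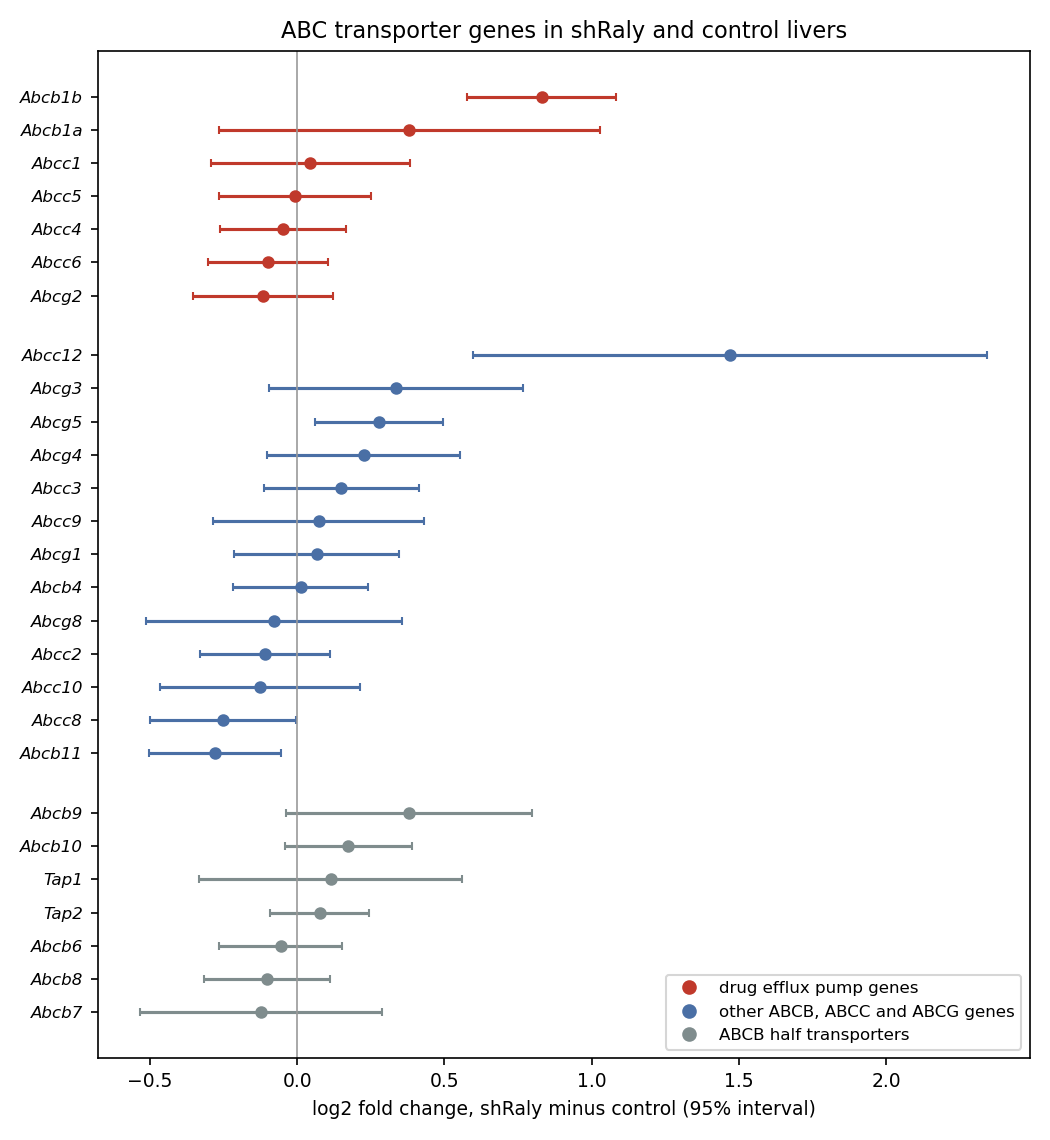
Log2 fold change, shRaly minus control, with 95% interval (horizontal axis), for the 7 pump genes, 13 other ABCB, ABCC and ABCG genes and 7 ABCB hemitransporters (rows, sorted within each group). Abcb1b (0.83) and Abcc12 (1.47) have the intervals farthest above 0, and most of the others lie within 0.4 of 0.

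Solute carriers bring drugs and bile acids into hepatocytes or move them out beside the pumps. Of 18 such carriers 16 were measured, with 0 past the threshold in limma, 1 higher and 1 lower at an unadjusted p under 0.05, and a median of 0.09. Slco2b1, an organic anion uptake carrier, had the smallest p, at 77.9% of control (adjusted p = 0.0829, log2 -0.36, SE 0.08), and passed with normexp at an offset of 50 (log2 -0.44, adjusted p = 0.0356). Of 9 proteins that anchor or deliver pumps at the apical membrane 8 were measured and 0 passed, with 2 higher and 0 lower at an unadjusted p under 0.05. Ezr, which links apical membrane proteins to actin, was at 127% of control (adjusted p = 0.182).

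Among 27 regulators of pump genes, 1 passed the threshold in limma as lower and 0 as higher, beside 0.914% and 0.309% of all genes tested. At an unadjusted p under 0.05, 1 was higher and 3 were lower, and the median was -0.02. Ppara, the nuclear receptor of fatty acid oxidation genes, was the one that passed, at 66.6% of control (limma adjusted p = 0.0498, log2 -0.59, SE 0.11). That call held under 6 of 18 alternatives. The xenobiotic receptor genes did not pass: Nr1i2, which encodes PXR, was at 114% (adjusted p = 0.638) and Nr1i3, which encodes CAR, at 92.2% (adjusted p = 0.738). Nfe2l2, which encodes the oxidant-response factor NRF2, was at 104% of control (adjusted p = 0.859).

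Target genes of PXR, CAR and NRF2 were counted in the same way. Gsta2 and Gstm1 stood on both target lists, and Gstm1 is counted among the higher genes of each. Slco1a4 stood on the PXR and CAR list and on that of solute carriers. Of 20 PXR and CAR targets 17 were measured and 0 passed in limma, with 3 higher and 1 lower at an unadjusted p under 0.05 and a median of 0.04. Cyp3a11, the main drug-induced cytochrome P450 that PXR controls in mouse liver, was at 90.7% of control (adjusted p = 0.59), and Cyp2b10, the classic CAR target, at 103% with a wide SE of 0.69 on the log2 scale (adjusted p = 0.984). Gadd45b, a stress-response gene on the same list, had a fold of 1.59 (adjusted p = 0.116), and passed with normexp at an offset of 50 (log2 0.54, adjusted p = 0.0428). Of 26 NRF2 targets 24 were measured and 0 passed, with 5 higher and 3 lower at an unadjusted p under 0.05 and a median of 0.07. Values lay above 0 for 19 and below 0 for 5, beside 46.2% of all genes tested that lay above 0. The list's median relative to control was 0.16, 0.08, 0.08 and 0.06 on shRaly arrays 1 to 4. On control arrays 1 to 4 it was 0.05, 0.04, -0.06 and 0.03. The groups did not overlap in it, but by a narrow margin (shRaly 4 at 0.060, control 1 at 0.046). Without shRaly 2, 1 NRF2 target passed. Nqo1, a quinone reductase, had the smallest p, at a fold of 1.90 (log2 0.93, SE 0.24, adjusted p = 0.106).

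Proliferation genes, which are high in regenerating liver, and cell type markers were set beside Abcb1b array by array. Of 15 cell cycle genes 14 were measured and 0 passed in limma, while 6 were higher and 0 lower at an unadjusted p under 0.05. Values lay above 0 for 12 and below 0 for 2, beside 46.2% of all genes tested above 0, and the median was 0.36. The number past the threshold was 4 without shRaly 2, Plk1 among them, and 1 with normexp at either offset. The list's median relative to control was 0.45, -0.05, 0.97 and 0.40 on shRaly arrays 1 to 4, against 0.02, -0.02, -0.25 and 0.22 on control arrays 1 to 4. shRaly 3 was the highest and shRaly 2 the lowest knockdown array both for this list and for Abcb1b. Among control arrays the order was reversed. Control 3 was the lowest and control 4 the highest for the list, whereas control 3 was the highest and control 4 the lowest for Abcb1b. The list's part in the Abcb1b value was not tested. Plk1, a mitotic kinase, was at 167% of control (adjusted p = 0.116).

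All 10 hepatocyte markers were measured, with 0 past the threshold in limma (2 higher and 2 lower at an unadjusted p under 0.05), a median of -0.03 and a summed signal of 82.1% to 107% of the control mean on shRaly arrays, against 95.4% to 105% on control arrays. Endothelial markers, 9 of 9 measured, had 0 past the threshold (0 higher and 3 lower at an unadjusted p under 0.05) and a median of -0.24. Their summed signal was 77.8% to 91.7% on shRaly arrays, below the 93.9% to 104% of the control arrays. This sum adds signals on the linear scale, so bright probes weigh most, and it does not measure cell number. Clec4g and Stab2 were the brightest, at mean log2 signals of 4.99 and 3.92 in control livers, against 2.73 for Kdr, the next. Stab2, a scavenger receptor of liver sinusoids, was at 80.7% of control (adjusted p = 0.157). Of the 9 endothelial markers 6 had values below control and 3 (Pecam1, Kdr and Tek) above it, and their part in the values of the pumps was not tested.

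Markers of cholangiocytes, macrophages, lymphocytes, neutrophils and stellate cells had 0 genes past the threshold in each list, and their summed signals overlapped between the groups. The sums add signals on the linear scale, so a bright probe can make up most of a sum. Cd4 was the brightest lymphocyte marker, at a mean log2 signal of 5.09 in control livers, against 1.84 for the next. Aqp1 (4.77 against 1.49) and Dcn (6.13 against 2.60) stood out likewise among cholangiocyte and stellate cell markers. These sums largely follow 1 gene each and do not measure cell number. For 7 of 8 cholangiocyte markers the sum was 77.9% to 97.1% on shRaly arrays, against 88.0% to 112% on control arrays, and Cftr did not pass the filter. For 8 of 9 Kupffer cell and macrophage markers it was 88.4% to 107%, against 73.7% to 112%, and Timd4 did not pass. For 9 of 10 lymphocyte markers it was 54.4% to 95.7%, against 87.6% to 124%, and Ncr1 did not pass the filter; 1 lymphocyte marker was past the threshold without shRaly 2 and with normexp at an offset of 50. For 4 of 6 neutrophil markers it was 108% to 143%, against 70.3% to 135%, and Mpo and Cxcr2 did not pass. Stellate cell markers (8 of 8) were at 92.4% to 111%, against 91.0% to 111%. At an unadjusted p under 0.05, 0 markers of cholangiocytes, macrophages and neutrophils differed, while 3 lymphocyte markers and 1 stellate cell marker were lower. The median log2 fold change was -0.18 for cholangiocyte, -0.04 for macrophage, -0.18 for lymphocyte, 0.40 for neutrophil and -0.20 for stellate cell markers. Neutrophil markers lay above 0 for 4 and below 0 for 0 of those measured.

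The genes whose pattern over the 8 arrays was most like that of Abcb1b were named by Pearson's r among 12374 genes well above background on every array. The coefficients describe 8 points that fall into the same 2 groups and share their arrays, so a gene that differs between the groups scores high by that alone. Lcp1, an actin-bundling protein of leukocytes, had r = 0.983, and 0.789 when each value was taken from its group mean. For each gene named, the second value rests on the same arrays. Ranking by the first favours genes high in both, so the second is not separate support. Lmbr1 had 0.974 (0.717 from group means), Lins1 0.971 (0.816), the chemokine gene Cxcl10 0.967 (0.551) and Lrp2, the endocytic receptor megalin, 0.956 (0.799). Of these 5, Lcp1 (fold 1.35, limma adjusted p = 0.0445), Cxcl10 (1.95, 0.0103) and Lrp2 (2.73, 0.0429) passed the threshold as higher, and Lmbr1 (1.35, 0.0528) and Lins1 (1.19, 0.177) did not. Among the pumps the nearest to Abcb1b was Abcb1a, at rank 3561 with r = 0.291, and -0.413 from group means.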

How the data were processed

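Liver RNA was measured on 8 single-colour Agilent arrays, 4 shRaly and 4 control, grouped and numbered by sample title; the titles do not say that each array is another mouse, so the p-values cover only the spread among these samples, which may be technical. The intensity values are those of Agilent Feature Extraction 11.5.1.1 per the file headers, which deposited for each spot a mean signal, a local background and a processed signal intensity that is background-subtracted and spatially detrended and not normalized between arrays. The submitters' processing notes give version 11.5.1.11. The deposited table of the series equalled the processed signal at 62976 of 62976 spots on every array (relative tolerance 1e-06), so it is linear and uncentred, with column medians of 13.3 to 16.4.

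Here log2 of the processed signal minus each array's 75th percentile was used. Between 137 and 163 outlier-flagged spots per array were left out, none was saturated, and spots of a probe were averaged. Probes were tested if well above background on at least 4 arrays and valued on at least 3 per group (19861 probes), with the brightest probe standing for a gene. Names came from RefSeq accessions (27656 probes), current symbols (3401) or older symbols (321), or were kept from the files (1775). Groups were compared with limma 3.58.1 in R 4.3.3 (lmFit, eBayes) over 14874 genes, with Benjamini-Hochberg adjustment and a threshold of 0.05. The fit was also run on simulated data, with independent noise for each gene and no effect of slide row. That run does not show how the fit behaves on these arrays. The number of arrays limits the precision.

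The members and gene lists were chosen with earlier results of these data known. Genes named were the 7 pumps, Raly, Abcb4, Abcb11, Abcc2, Abcc3, Nr1i2, Nr1i3, Nfe2l2, Cyp3a11 and Cyp2b10, in each list at most 4 genes that passed, or else the gene of smallest p, and the 5 genes most like Abcb1b. For the smaller marker lists that gene is not described, though Cd4, Aqp1 and Dcn are named as the brightest of theirs. Clec4g is likewise named as the brightest endothelial marker, and Gsta2, Gstm1 and Slco1a4 because they stand on more than 1 list. Rundc3b, Slc25a40 and Crot were chosen after their values were seen. Protein sequences were not used here, and 1 further marker list is not reported here. Each title number was also a slide column; deviations of same-numbered arrays correlated at r from -0.07 to 0.14, so the numbers were not taken as pairs.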

Additional observations from a re-analysis of the deposited data

Results flagged for a closer look

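The dimmer Abcc6 probe had 1 control array far from the others. Control 1 had a log2 signal of 2.32, against 1.90 to 1.95 on the other control arrays, a gap of 0.878 of the group's range, above Dixon's critical value of 0.829 for 4 samples. It was 1 of 22 groups of arrays examined over the 11 pump probes, and chance flags about 5% of groups. The brighter Abcc6 probe also read highest on control 1 (5.16 against 4.91 to 5.02).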

How the results depend on the processing

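Abcb1b stayed higher in shRaly livers under all 18 alternatives, at 0.42 with normexp and an offset of 50 and between 0.78 and 0.89 over the 8 that leave out an array. It was not past the threshold with no filter on dim probes (0.83; 42 genes past the threshold, 0 of the 7 pumps) and with a replicate block (0.83; 46 genes, 0 pumps). With single arrays left out the number of pumps past the threshold ran from 0 to 1 and that of all genes from 17 (without control 2) to 282 (without shRaly 2), against 182 with all arrays: 119, 47 and 20 without shRaly 1, 3 and 4, and 55, 20 and 49 without control 1, 3 and 4. Fewer arrays or more genes tested are part of these settings; the cause was otherwise not tested. Title number and slide column coincide. Same-numbered arrays did not deviate together, and 1 of 4 shRaly arrays correlated best with the control of its own number. Median scaling moved the share of calls that were higher by under 10 percentage points (17.3%, against 25.3%), and normexp with an offset of 1 gave 36.5%. Uncalled values near 0 changed sign: Abcc4 (0.034 and 0.039) and Abcc5 (0.010 and 0.011) with normexp at offsets of 50 and 1, Abcb4 with these (-0.087 and -0.083) and median scaling (-0.016), and Abcc1 with an offset of 1 (-0.00309). Over the arrays left out Abcc1 ranged from -0.066 to 0.15, Abcc5 from -0.086 to 0.057, Abcb4 from -0.053 to 0.068, Nfe2l2 from -0.014 to 0.11 and Cyp2b10 from -0.64 to 0.47. The calls of Rundc3b, Lcp1 and Lrp2 held under 7 of 17, 4 of 18 and 9 of 18 alternatives, and that of Cxcl10 under 18 of 18. Abcc12, Slco2b1 and Gadd45b, not called in the fit of all arrays, passed under 2 of 17, 1 of 18 and 1 of 18. Depth is not known for arrays; a dim probe such as that of Abcb1b limits how firmly its fold is known.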
